A study of Mus musculus with 4 samples.

Results

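The genes described here are 10 mouse genes that mark T cells and natural killer (NK) cells, read in RNA from sorted myeloid-derived suppressor cells (MDSCs). They are Cd3d, Cd3e, Cd3g, Trac, Trbc2, Cd4, Cd8a, Il2rb, Ncr1 and Gzma, and each was found by its gene name as 1 of the 53465 genes of the count table. MDSCs are myeloid cells of an immature kind that build up when a tumor grows and restrain T cells, and 4T1 is a mammary carcinoma line that grows in BALB/c mice. Both groups came from male BALB/c mice that carried subcutaneous 4T1 tumors. Splenic cells were pulled out with beads that bind Gr-1 (Ly-6G and Ly-6C) and were then held in culture for 6 h. The control group (2 libraries) had medium alone, and the EGCG treatment group (2 libraries) had 5 μg/mL epigallocatechin-3-gallate, the main catechin of green tea, added to the dish. The labels give day 21 of tumor growth, while the methods of the study give an earlier day for the sort. The sources used here do not say if both libraries of a group stem from separate mice, pooled mice or separate wells, so p values measure only the spread between these libraries.

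An αβ T cell recognizes antigen through a receptor whose 2 chains end in the constant regions encoded by Trac and by Trbc1 or Trbc2. These chains reach the cell surface only together with the CD3 proteins, which Cd3d, Cd3e and Cd3g encode, and with the ζ chain encoded by Cd247. CD4 and CD8 are coreceptors that bind MHC class II and class I and separate helper from cytotoxic T cells. NK cells lack this receptor, depend on IL-15 through the receptor chain encoded by Il2rb, carry the activating receptor NKp46 encoded by Ncr1, and like cytotoxic T cells store granzymes such as the one encoded by Gzma. A bead selection for Gr-1 is meant to leave both cell types behind, so RNA of these genes can show whether lymphocyte transcripts were still in the sorted material. In RNA from a mixture, fewer cells of a type and less RNA per cell cannot be told apart.

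The libraries held 17767318 to 18390385 reads counted on genes. Markers of the sorted label were present, with Ly6g at 943 to 1200 CPM (counts scaled to the size of the library, with TMM factors), Itgam at 646 to 758 CPM and Cybb at 1227 to 1267 CPM, while Nos2 was near the bottom at 0.767 to 1.29 CPM. The 10 T and NK cell genes together took 1935 and 2153 counts in the control libraries against 2251 and 2203 counts in the EGCG libraries. This was 0.0109% to 0.0122% of each library. Cd3d alone made up 71.0% and 71.3% of that sum in the control group and 70.6% and 73.1% in the EGCG treatment group.

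None of the T and NK cell genes passed the test for a difference between the EGCG treatment group and the control group. Of the 10 genes, 9 had enough counts to be tested by edgeR's quasi-likelihood test (two-sided, Benjamini-Hochberg adjustment over 14682 genes), and Ncr1 did not. The number past an adjusted p of 0.05 was 0, against 20 lower genes (0.136% of all tested genes) and 2 higher genes (0.0136%) across the table. At an unadjusted p under 0.05 the number was also 0, against 7.02% lower and 5.22% higher (12.2% in all) among all tested genes. This 0 at an unadjusted p did not hold without control replicate 2 (Cd3d and Trac) or without EGCG replicate 2 (Trbc2). In such fits 1 group has 1 library, and only the other group gives the spread. The log2 differences there were 0.24 for Cd3d, 0.88 for Trac and 0.59 for Trbc2. The shares over all tested genes given here are from the fit to all 4 libraries and are no background for those fits. DESeq2 gave an adjusted p for 2 of the 9 genes (Cd3d, 0.813, and Il2rb, 0.991) and none for the other 7, which it left out as low, and 0 of the 9 genes had an unadjusted DESeq2 p under 0.05. The log2 difference, EGCG minus control, was positive for 7 genes and negative for 2, ran from -0.24 (Cd8a) to 0.35 (Trac), and had a median of 0.14 beside 0.0031 over all tested genes. Without Cd3d the median was 0.13. The EGCG libraries both lay above the control libraries for Cd3d and Gzma, which is 2 of 9, beside 21.5% of all tested genes. They both lay below for Cd8a, which is 1 of 9, beside 21.2%.

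**Figure D1:**
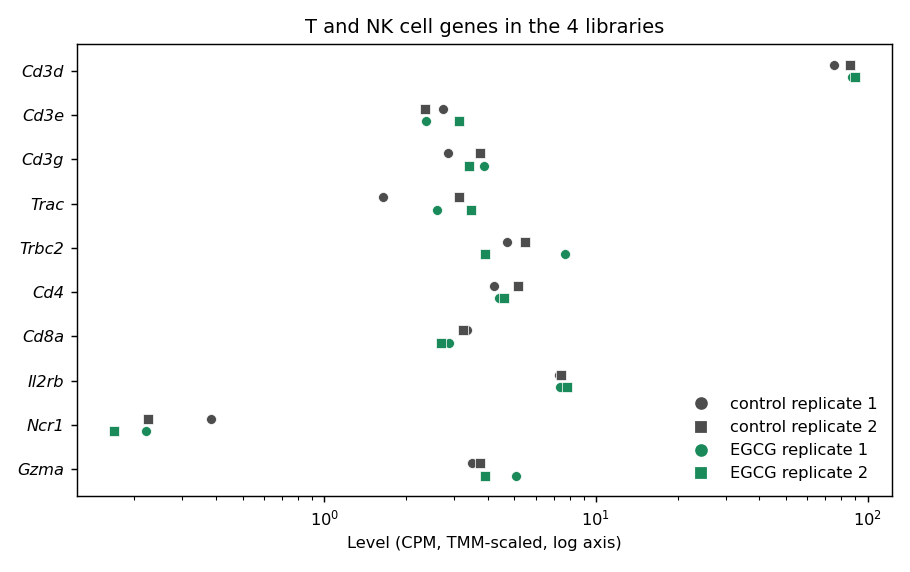
Level of each of the 10 T and NK cell genes in TMM-scaled CPM (log axis) in each library, with 1 point for each of the 2 control (gray) and 2 EGCG (green) libraries, circles for replicate 1 and squares for replicate 2. Cd3d sits at 75.2 to 90.2 CPM, the other 9 genes lie at 7.84 CPM or less, and in 6 of the 9 tested genes the libraries of the 2 groups overlap.

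The CD3 genes lie side by side on chromosome 9 (GRCm38). Cd3g (ENSMUSG00000002033, chr9:44969572-44980431, minus strand) and Cd3d (ENSMUSG00000032094, chr9:44981786-44987339, plus strand) point away from each other with 1354 bases between their starts, and Cd3e (ENSMUSG00000032093, chr9:44998740-45009627, minus strand) follows 11400 bases further on. Each encodes one of the small membrane proteins that pair up beside the T cell receptor and carry its signal inwards.

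Cd3d was the most abundant of the 10 genes. It had 1374 and 1536 counts in the control libraries against 1590 and 1611 counts in the EGCG libraries, or 75.2 and 86.0 CPM against 87.7 and 90.2 CPM. Control replicate 1 was the lowest, and the group means were 80.6 ± 7.57 CPM (SD, n = 2) and 88.9 ± 1.77 CPM (SD, n = 2). The log2 difference was 0.14 ± 0.08 (SE), with a 95% interval from -0.04 to 0.32 and an adjusted p of 0.533. Both EGCG libraries lay above both control libraries, but Cd3d did not pass edgeR's test.

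Cd3e and Cd3g were far below their neighbor. Cd3e had 50 and 42 counts in the control libraries against 43 and 56 in the EGCG libraries (2.54 ± 0.274 and 2.75 ± 0.540 CPM, SD, n = 2 each). Cd3g had 52 and 67 counts against 70 and 61 (3.30 ± 0.637 and 3.64 ± 0.315 CPM, SD, n = 2 each). For both genes the groups overlapped. Their log2 differences were 0.11 ± 0.26 (SE, adjusted p = 0.910) for Cd3e and 0.14 ± 0.24 (SE, adjusted p = 0.862) for Cd3g.

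Cd3d stood well above the other CD3 genes in every library. Cd3d had 27.5 and 36.6 times the counts of Cd3e in the control libraries and 37.0 and 28.8 times in the EGCG libraries. Over Cd3g the ratio of counts was 26.4 and 22.9 in the control group and 22.7 and 26.4 in the EGCG treatment group. Gene length enters such ratios, since the annotated exons cover 1815 bases in Cd3d, 4080 in Cd3e and 3269 in Cd3g. Per kilobase of all annotated exons, the level of Cd3d was 61.8 to 83.1 times that of Cd3e and 40.9 to 47.6 times that of Cd3g. Per kilobase of the longest coding transcript, a scale chosen after the values were seen, it was 24.8 to 33.4 times that of Cd3e and 14.4 to 16.7 times that of Cd3g. The 3 proteins are built into one receptor complex in T cells, and the RNA levels measured here were thus unequal on each of these scales.

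The counting ignored strand and could mix genes that overlap or share sequence. No other annotated gene overlaps Cd3d. Of the 31-base words of its transcripts, 3.10% also occur in transcripts of other genes. These words were found in 1324 other genes, against 4 for the shared words of Cd3e and 13 for those of Cd3g. Whether reads from such words add to the counts of Cd3d was not tested. Cd3e shares 135 exonic bases (3.31% of its exonic length) with the antisense gene Gm48719, so reads there cannot be given to one of them. Cd3g shares 0.243% of its words with other genes.

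The promoters of the CD3 genes are shown because genes of 1 locus and 1 protein complex differed so widely in level. RefSeq (GRCm38.p6) gave promoters for 6 of the 10 genes, each from 250 bases before to 50 bases after the start, and the sequences below run 5′ to 3′ on the strand of the gene. Capitals mark matches to 2 motifs, the E-box letters CAGGTG and the GATA letters AGATAA, and a match on the other strand reads as the reverse complement. Both strands were searched for these and for the letters GAGGAAGT (PU.1), TGTGGTT (RUNX) and TTGCNNAA (C/EBP), and no 2 of the marked matches overlap.
Cd3d, chr9:44981536-44981835, plus strand: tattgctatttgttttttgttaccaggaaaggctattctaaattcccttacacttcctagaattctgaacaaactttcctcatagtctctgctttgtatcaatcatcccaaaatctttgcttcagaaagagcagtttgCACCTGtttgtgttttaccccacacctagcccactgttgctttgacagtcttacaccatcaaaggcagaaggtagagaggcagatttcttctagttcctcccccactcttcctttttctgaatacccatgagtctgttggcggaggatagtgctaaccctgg
Cd3g, chr9:44980382-44980681, minus strand: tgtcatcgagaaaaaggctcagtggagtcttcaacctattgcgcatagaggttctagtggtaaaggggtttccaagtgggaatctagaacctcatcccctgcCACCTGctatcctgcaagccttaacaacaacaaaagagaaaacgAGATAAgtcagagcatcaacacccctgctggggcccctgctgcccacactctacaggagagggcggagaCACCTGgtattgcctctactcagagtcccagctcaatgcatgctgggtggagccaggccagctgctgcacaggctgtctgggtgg
Cd3e, chr9:45009562-45009861, minus strand: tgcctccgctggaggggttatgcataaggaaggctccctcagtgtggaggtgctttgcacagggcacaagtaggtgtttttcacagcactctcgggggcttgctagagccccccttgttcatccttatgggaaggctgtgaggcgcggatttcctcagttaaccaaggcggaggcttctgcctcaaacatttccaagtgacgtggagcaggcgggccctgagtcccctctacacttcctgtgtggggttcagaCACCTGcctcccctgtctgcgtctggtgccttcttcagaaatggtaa

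The E-box letters, which basic helix-loop-helix factors such as the E proteins of lymphocytes bind, stood once in the window of Cd3d, once in that of Cd3e and at 2 places in that of Cd3g. They are in 20.3% of the 32544 promoters of the same length. The GATA letters stood once in Cd3g and in neither of the others, and are in 11.2% of all promoters. The letters searched for PU.1 (3.11% of promoters), RUNX (5.29%) and C/EBP (10.8%) were in none of these windows. A match is a run of letters and not a measured binding site.

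The constant chains of the T cell receptor were present in all 4 libraries and spread widely between replicates. Trac (ENSMUSG00000076928, chr14:54220521-54224206, plus strand) encodes the constant region of the α chain. It had 30 and 56 counts in the control libraries against 47 and 62 in the EGCG libraries, or 1.64 and 3.13 CPM against 2.59 and 3.47 CPM. Control replicate 1 was again the lowest, and the groups overlapped. The group means were 2.39 ± 1.05 and 3.03 ± 0.622 CPM (SD, n = 2 each), and the log2 difference of 0.35 ± 0.31 (SE, adjusted p = 0.703) was the largest of the 9. Without control replicate 2 it was 0.88, and without control replicate 1 it was -0.04.

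Trbc2 (ENSMUSG00000076498, chr6:41546730-41548352, plus strand) encodes 1 of 2 interchangeable constant regions of the β chain. Its counts were 86 and 98 in the control libraries against 139 and 70 in the EGCG libraries, or 4.71 and 5.48 CPM against 7.67 and 3.92 CPM. The highest and the lowest library were thus both EGCG libraries, on either side of the control group. Exact 95% Poisson intervals of the counts, which cover counting error only, were 117 to 164 for EGCG replicate 1 and 54.6 to 88.4 for EGCG replicate 2 and did not overlap. The log2 difference between the groups was 0.19 ± 0.26 (SE, adjusted p = 0.829). Without EGCG replicate 1 it was -0.38, and without EGCG replicate 2 it was 0.59.

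Trbc2 has a close copy, Trbc1 (ENSMUSG00000076490, chr6:41538218-41539881, plus strand), which ends 6848 bases before it. Of the 31-base words of the Trbc2 transcript, 48.5% also occur in Trbc1, so reads from the shared stretch can be given to either gene or dropped. The annotated transcripts are near-identical only at their start, with 1 difference in the 382 bases before the second one, and they have 737 bases in Trbc1 and 692 in Trbc2. The stretch around the first difference, bases 215 to 304 of the GENCODE transcripts (GRCm38, 5′ to 3′), is shown because it shows how alike the copies are in this part, and the capital marks the base that differs.
Trbc1: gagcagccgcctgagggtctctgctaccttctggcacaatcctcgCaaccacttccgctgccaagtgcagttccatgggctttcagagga
Trbc2: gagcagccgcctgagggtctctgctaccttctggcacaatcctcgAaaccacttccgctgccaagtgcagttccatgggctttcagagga

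Trbc1 had 54 and 87 counts in the control libraries against 94 and 65 in the EGCG libraries. The sum of both copies was 140 and 185 counts against 233 and 135, or 7.67 and 10.4 CPM against 12.9 and 7.56 CPM. EGCG replicate 1 was again the highest library and EGCG replicate 2 again the lowest, here by a narrow margin, so the wide spread of the EGCG libraries was in the sum as well as in Trbc2. Trbc2 had 1.59 and 1.13 times the counts of Trbc1 in the control libraries and 1.48 and 1.08 times in the EGCG libraries.

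The coreceptors were low, and neither passed the test. Cd4 (ENSMUSG00000023274, chr6:124864692-124888221, minus strand), which encodes the coreceptor of helper T cells and is also made by some dendritic cells, had 77 and 92 counts in the control libraries against 80 and 82 in the EGCG libraries. Its group means were 4.68 ± 0.659 and 4.50 ± 0.126 CPM (SD, n = 2 each), the groups overlapped, and the log2 difference was -0.06 ± 0.20 (SE, adjusted p = 0.944). Cd8a (ENSMUSG00000053977, chr6:71373427-71379173, plus strand) encodes the α chain of the coreceptor of cytotoxic T cells, which a class of dendritic cells carries as well. It had 61 and 58 counts in the control libraries against 52 and 48 in the EGCG libraries, or 3.34 and 3.25 CPM against 2.87 and 2.69 CPM. Both EGCG libraries were below both control libraries. The log2 difference was -0.24 ± 0.23 (SE, 95% interval from -0.75 to 0.26, adjusted p = 0.724), which the test did not tell from 0. Per kilobase of exons the level of Cd4 was 1.14 and 1.43 times that of Cd8a in the control libraries and 1.39 and 1.54 times in the EGCG libraries.

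The genes shared by NK cells and cytotoxic T cells did not pass the test either. Il2rb (ENSMUSG00000068227, chr15:78479256-78495271, minus strand), the β chain of the receptors for IL-2 and IL-15, hardly varied between libraries. Its counts were 134 and 133 in the control libraries against 134 and 140 in the EGCG libraries (7.39 ± 0.0736 and 7.61 ± 0.317 CPM, SD, n = 2 each). The log2 difference was 0.04 ± 0.16 (SE), and the 95% interval from -0.30 to 0.39 gives the sizes that these libraries leave possible.

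Gzma (ENSMUSG00000023132, chr13:113093825-113100981, minus strand) encodes granzyme A, a serine protease released from cytotoxic granules. Its counts were 64 and 67 in the control libraries against 92 and 70 in the EGCG libraries, or 3.50 and 3.75 CPM against 5.07 and 3.92 CPM. Both EGCG libraries were above the control libraries, EGCG replicate 2 by little. The log2 difference was 0.31 ± 0.22 (SE, 95% interval from -0.16 to 0.78, adjusted p = 0.613).

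Ncr1 (ENSMUSG00000062524, chr7:4337724-4345164, plus strand), whose product NKp46 is the receptor most restricted to NK cells among the 10, was barely detected. It had 7 and 4 counts in the control libraries against 4 and 3 in the EGCG libraries. The exact 95% Poisson intervals were 2.81 to 14.4 for the highest library and 0.619 to 8.77 for the lowest, and they overlap. Ncr1 was below the count filter and no difference was detectable at this depth.

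To set the genes beside each other, levels were divided by length. In CPM per kilobase of annotated exons, averaged over the 4 libraries, Cd3d was at 46.7 (41.5 to 49.7), followed by Trbc2 at 7.87 (5.66 to 11.1), Gzma at 4.04 (3.48 to 5.04) and Trac at 2.90 (1.76 to 3.71). Il2rb followed at 1.75 (1.71 to 1.83), Cd4 at 1.14 (1.05 to 1.28) and Cd3g at 1.06 (0.871 to 1.18). Cd8a at 0.835 (0.739 to 0.919), Cd3e at 0.649 (0.576 to 0.768) and Ncr1 at 0.162 (0.109 to 0.249) closed the order. The ranges over libraries overlap with those of the next gene for Gzma and Trac, Trac and Il2rb, Cd4 and Cd3g, Cd3g and Cd8a, and Cd8a and Cd3e, so these neighbors are not ordered by more than their spread. The lowest library of Cd3d, Trbc2, Il2rb and Cd3e is in each case above the highest library of the next gene. Compared within each library, Gzma was also above Trac and Trac above Il2rb in 4 of 4.

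On this scale the level of Cd3d was higher than that of 91.8% of the tested genes, and that of Trbc2 higher than 64.1%. Trac was at 43.3%, Il2rb at 33.1%, Cd4 at 25.7%, Cd3g at 24.5%, Cd8a at 20.6%, Cd3e at 16.9% and Ncr1, itself not tested, at 3.17%. Annotated exons include retained introns in some transcripts, which lowers a value per length. By the longest coding transcript the order became Cd3d (52.4), Trbc2 (7.87), Gzma (4.08), Cd3g (3.39), Trac (2.90), Cd3e (1.81), Il2rb (1.79), Cd4 (1.48), Cd8a (0.970) and Ncr1 (0.167). By the mean, Cd3d, Trbc2 and Gzma led and Ncr1 was the last on either scale, while Cd3g moved from the seventh to the fourth place and Cd3e from the ninth to the sixth.

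**Figure D2:**
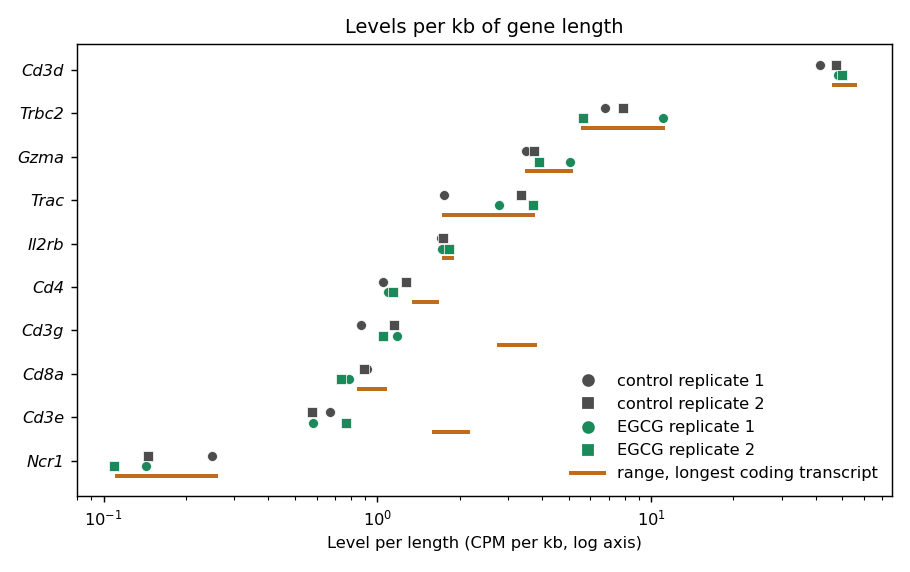
Level of the 10 T and NK cell genes in CPM per kilobase of annotated exons (log axis) in each of the 2 control and 2 EGCG libraries, ordered by the mean over the 4 libraries, with orange bars for the range per kilobase of the longest coding transcript. By exons, Cd3d lies at 41.5 to 49.7, above Trbc2 at 5.66 to 11.1, and Ncr1 is the lowest at 0.109 to 0.249.

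The other genes of T and NK cells were read from 6 lists with 65 genes, of which 50 were tested. The test called 0 of them by edgeR's adjusted p, and at an unadjusted p under 0.05 there were 2 lower genes (Il7r and Il15ra) and 2 higher genes (Ctla4 and Lef1), which is 4 of 50, beside 12.2% of all tested genes (7.02% lower and 5.22% higher). The log2 difference was positive for 32 genes and negative for 18, with a median of 0.15. Groups did not overlap for 14 genes with EGCG higher and for 8 with EGCG lower, beside the 21.5% and 21.2% of all tested genes given above.

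Among the other T cell receptor complex genes, 3 of 6 were tested, with a median of 0.18. Cd247, the signaling ζ chain, was at 3.23 and 3.53 CPM in the control libraries against 3.97 and 4.87 CPM in the EGCG libraries (log2 difference 0.39 ± 0.22, SE, adjusted p = 0.515). Trdc, the constant region of the δ chain of γδ T cells, was at 2.46 and 1.51 CPM against 1.49 and 1.40 CPM (-0.46 ± 0.34, SE, adjusted p = 0.626). Trbc1 had a log2 difference of 0.18 ± 0.26 (SE, adjusted p = 0.841). The constant regions of the γ chain, Tcrg-C1, Tcrg-C2 and Tcrg-C4, had between 0 and 7 counts in any library.

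Of the surface and signaling genes of T cells, 18 of 19 were tested, with a median of 0.18, 13 positive and 5 negative values. Ctla4, an inhibitory receptor of activated and regulatory T cells, had 26 and 46 counts in the control libraries against 56 and 68 in the EGCG libraries. Its log2 difference of 0.79 ± 0.29 (SE, 95% interval from 0.16 to 1.42) had an unadjusted p of 0.0181 and an adjusted p of 0.309. Il7r, the receptor for the survival cytokine IL-7, was at 53.9 and 48.0 CPM against 42.0 and 45.3 CPM (-0.22 ± 0.09, SE, adjusted p = 0.359).

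Of the T cell transcription factors, 7 of 8 were tested, with a median of 0.21 and 6 positive values. Lef1, which acts with Tcf7 in naive T cells, was at 3.56 and 3.36 CPM in the control libraries against 4.74 and 5.04 CPM in the EGCG libraries (log2 difference 0.50 ± 0.21, SE, adjusted p = 0.355). Gata3, the factor of type 2 helper T cells, had a log2 difference of 0.76 ± 0.42 (SE) on 10 to 21 counts, and Tcf7 was level at 0.01 ± 0.16 (SE).

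Of the other NK cell receptors, 7 of 13 were tested, with a median of 0.13, and Klra4 and Klra8 had 0 counts in each library. Klrb1c, which encodes NK1.1, had 1 to 6 counts. Cd244, a receptor that myeloid cells also carry, was at 13.6 and 14.5 CPM against 12.5 and 12.9 CPM. The remaining named genes were Klrk1 (log2 difference 0.24 ± 0.31, SE), Cd226 (-0.63 ± 0.41, SE) and Klrg1 (0.83 ± 0.55, SE, on 4 to 20 counts), with adjusted p values of 0.807, 0.579 and 0.591.

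Of the other cytotoxic effector genes, 7 of 10 were tested, with a median of 0.19. Nkg7, a granule protein, was at 6.68 and 5.04 CPM in the control libraries against 6.67 and 4.65 CPM in the EGCG libraries, and replicate 1 was the higher library in both groups. Ccl5, a chemokine, was at 4.22 and 5.15 CPM against 4.19 and 6.49 CPM. The granzyme genes gave log2 differences of 0.26 ± 0.24 (SE, adjusted p = 0.706) for Gzmb and 0.57 ± 0.39 (SE, adjusted p = 0.597) for Gzmm. Fasl, the death ligand, had 11 and 10 counts against 2 and 8, with a log2 difference of -1.05 ± 0.63 (SE, adjusted p = 0.549). Ifng and Xcl1, secreted by activated NK cells and T cells, had at most 2 counts in any library.

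In the IL-2 and IL-15 receptor pathway, which holds the partners of Il2rb, 8 of 9 genes were tested, with a median of -0.02. Il15ra, which presents IL-15 to neighboring cells, was at 6.68 and 7.55 CPM in the control libraries against 4.63 and 5.88 CPM in the EGCG libraries (log2 difference -0.44 ± 0.19, SE, adjusted p = 0.376). Il2ra, the high-affinity chain, was at 5.04 and 4.70 CPM against 4.96 and 7.0 CPM. The shared signaling genes Jak1 (554 to 589 CPM) and Stat5b (188 to 201 CPM), which most blood cells use, had log2 differences of -0.01 and -0.06.

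**Figure D3:**
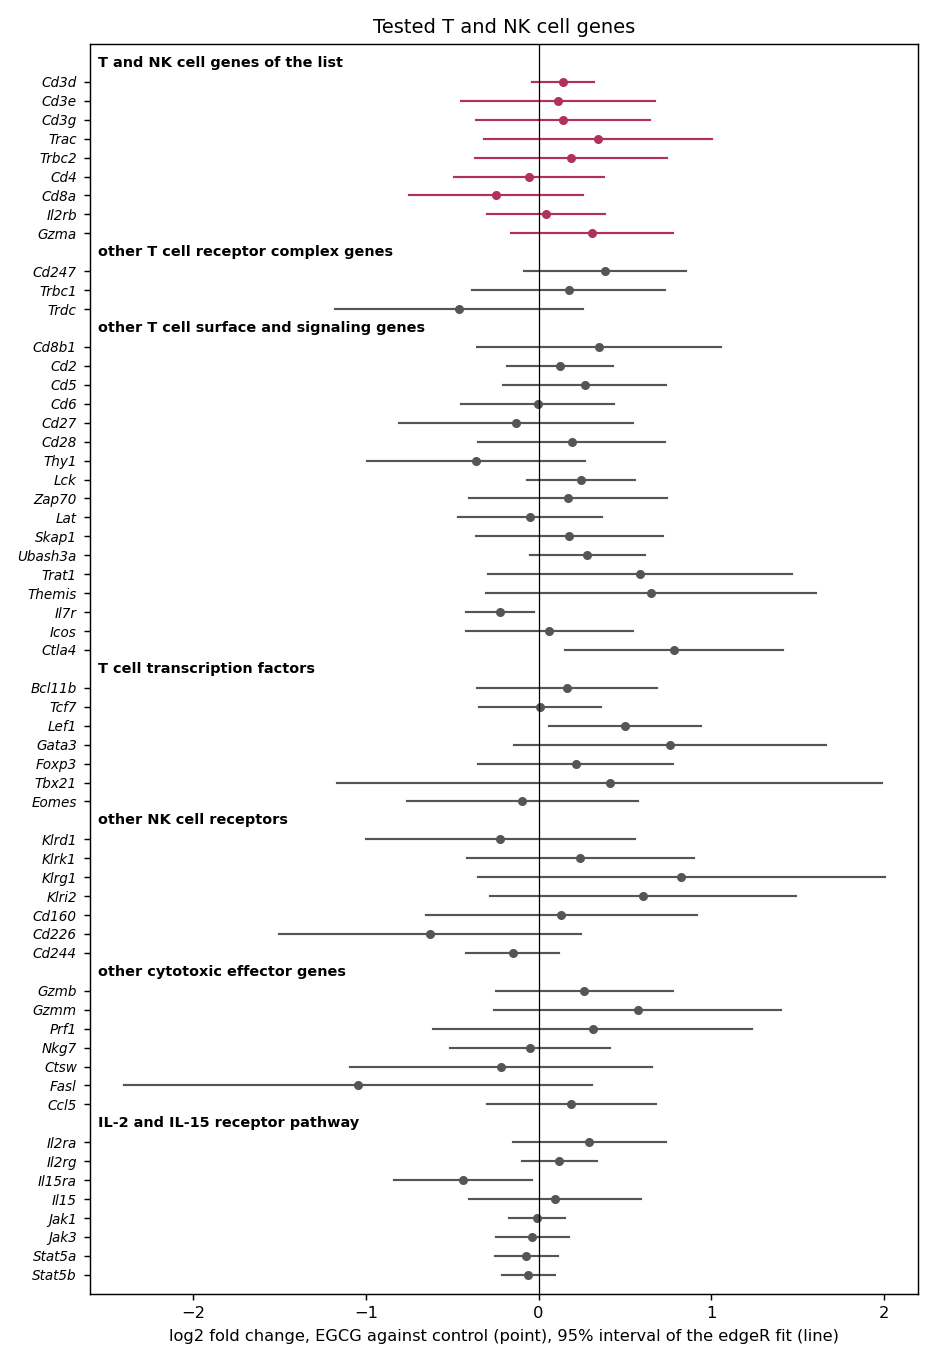
Log2 difference (fold change) of EGCG against control for the 9 tested T and NK cell genes (red) and 49 of the 50 other tested genes of the 6 pathway lists (gray), with points for the estimate, lines for the 95% interval of edgeR's fit to 2 control and 2 EGCG libraries, and a vertical line at 0. The red points run from -0.24 for Cd8a to 0.35 for Trac and each of their intervals includes 0, while in the 6 lists the intervals of Il7r, Ctla4, Lef1 and Il15ra, which are not adjusted for the number of genes, do not.

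Summed over the 10 genes, the level was 106 and 120.5 CPM in the control libraries against 124 and 123 CPM in the EGCG libraries, with means of 113.2 ± 10.3 and 123.7 ± 0.571 CPM (SD, n = 2 each). Control replicate 1 stood apart from the other 3 libraries, and the groups did not overlap. Without Cd3d the sum was 30.7 and 34.5 CPM against 36.5 and 33.1 CPM, where the groups overlapped. With 2 libraries in each group an exact permutation test cannot give a two-sided p below 0.333, and none was run.

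Most markers of B cells lay higher in both EGCG libraries, while 2 of the 9 tested T and NK cell genes did. Of 10 B cell genes, 10 were tested and 0 called, 9 had positive log2 differences with a median of 0.15, and 7 lay higher in both EGCG libraries than in both control libraries, beside 21.5% of all tested genes. The B cell gene with an unadjusted p under 0.05 was Ms4a1, at 40.1 and 46.8 CPM against 57.3 and 47.6 CPM. The B cell genes summed to 2164 and 2398 CPM per kilobase in the control libraries against 2530 and 2542 in the EGCG libraries, beside 59.0 and 68.1 against 72.7 and 68.6 for the T and NK cell genes and 17.5 and 20.8 against 24.4 and 18.9 without Cd3d. Control replicate 1 was the lowest library in each of these sums. The neutrophil genes, which S100a8 and S100a9 lead, summed to 81789 and 100319 CPM per kilobase in the control libraries against 114939 and 99077 in the EGCG libraries, and the genes of the MDSC label to 1466 and 1643 against 1759 and 1492. Both were again lowest in control replicate 1 and highest in EGCG replicate 1. The part of these cell types in the T and NK cell values was not tested.

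The lists of other cells gave these sums in CPM per kilobase. Monocyte genes were at 206 and 208 in the control libraries against 197 and 196 in the EGCG libraries, and splenic macrophage genes at 250.5 and 237 against 187 and 236. Basophil, mast cell and eosinophil genes were at 1292 and 1165 against 1143 and 982, erythroid genes at 189 and 240.3 against 225 and 255, and platelet genes at 38.3 and 43.0 against 34.7 and 37.3. Plasmacytoid dendritic cell genes were at 3.71 and 3.14 against 3.60 and 4.26, and conventional dendritic cell genes at 2.53 and 2.38 against 2.37 and 2.34. Among 5 epithelial genes that could come from 4T1 cells, Krt19 had 0 counts in each library, Krt8 at most 2 and Krt18 10 to 24. Epcam had 65 and 59 counts in the control libraries against 92 and 99 in the EGCG libraries (log2 difference 0.63 ± 0.20, SE, adjusted p = 0.235) and Cdh1 402 and 366 against 294 and 345 (-0.26 ± 0.12, SE, adjusted p = 0.403), and the list summed to 6.37 to 7.49.

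**Figure D4:**
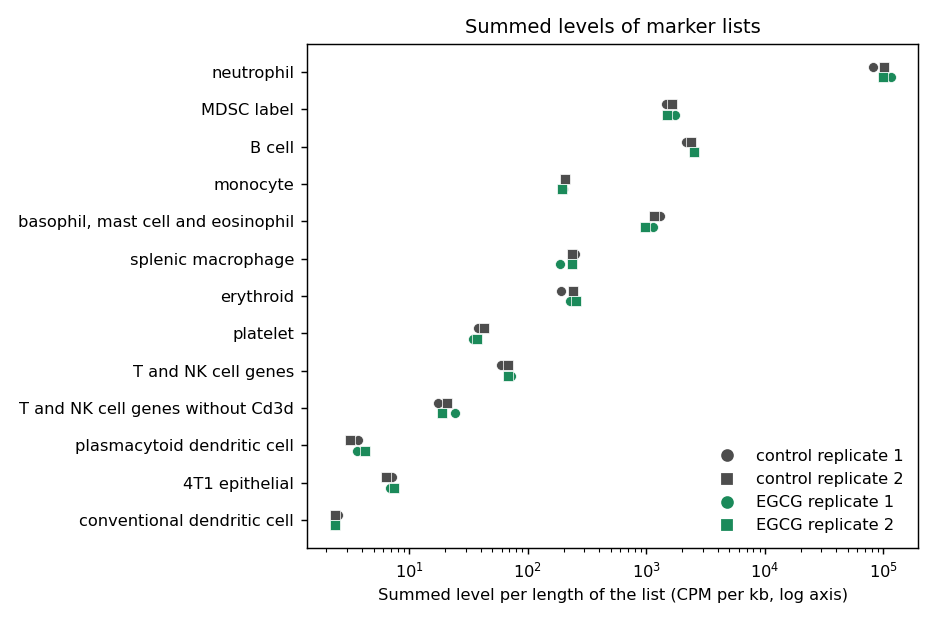
Summed level of each marker list in CPM per kilobase of annotated exons (log axis), with 1 point for each of the 2 control and 2 EGCG libraries. The T and NK cell genes sum to 59.0 to 72.7, the B cell genes to 2164 to 2542 and the neutrophil genes to 81789 to 114939.

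Leaving out 1 library at a time moved the T and NK cell genes by unequal amounts. Trbc2 ran from -0.38 to 0.59 and Trac from -0.04 to 0.88, while Cd8a stayed between -0.29 and -0.20. The median log2 difference of the 9 tested genes was 0.04 without control replicate 1, 0.24 without control replicate 2, 0.09 without EGCG replicate 1 and 0.12 without EGCG replicate 2. The sign turned for 5 genes in 1 such setting each, which were Cd3g and Trac without control replicate 1, Cd4 without control replicate 2, Trbc2 without EGCG replicate 1 and Cd3e without EGCG replicate 2. Cd3d, Cd8a, Il2rb and Gzma had 1 sign in each of the 15 alternatives tried. Their log2 differences were 0.05 to 0.24 for Cd3d, -0.29 to -0.20 for Cd8a, 0.0012 to 0.09 for Il2rb and 0.11 to 0.49 for Gzma. For Cd3d, Cd8a and Gzma the groups did not overlap, so leaving out 1 library could hardly turn the sign. The settings that keep every library refit the same counts, so a constant sign there adds little.

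**Figure D5:**
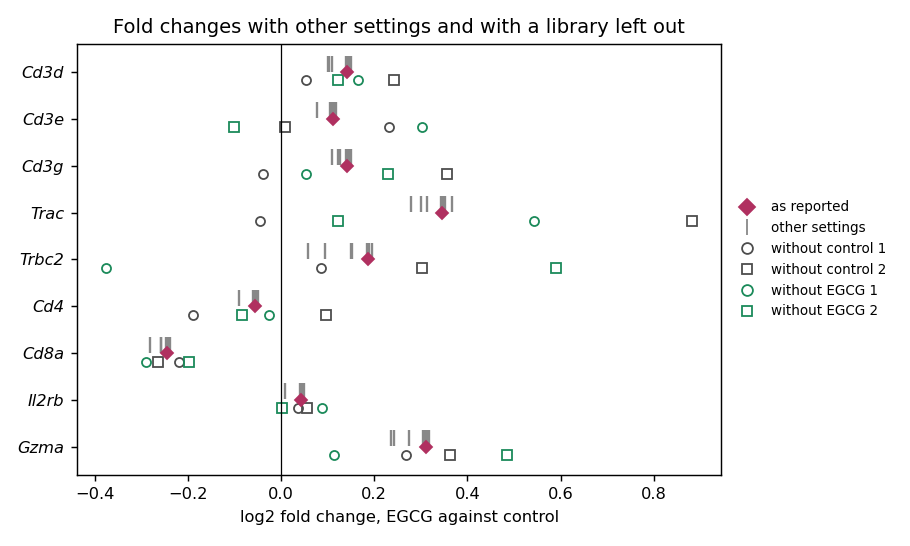
Log2 difference of EGCG minus control for each of the 9 tested T and NK cell genes as reported and under the 15 alternative settings, with diamonds for the reported value, open symbols for the 4 settings that leave out 1 library and gray ticks for the others. The points of Trbc2 reach -0.38 without EGCG replicate 1, and those of Cd8a stay between -0.29 and -0.20.

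The tested genes whose profile over the 4 libraries came nearest to the sum of the 10 genes were Dstn, Itgam and Rdh10, with root mean square differences of 0.00144, 0.00294 and 0.00526 in centered log2 CPM. Each was lowest in control replicate 1, as Dstn with 330.3 and 376 CPM in the control libraries against 387 and 385 CPM in the EGCG libraries. With 4 libraries and 14682 genes to choose from, such nearness is a description only.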

How the data were processed

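Gr-1-sorted splenic MDSCs of 4T1 tumor-bearing BALB/c mice were sequenced after 6 h in control medium or with 5 μg/mL EGCG, with 2 libraries in each group, grouped by their labels. The authors aligned reads with STAR 2.6.0c to GRCm38, counted them with featureCounts 1.6.2 on Ensembl genes without regard to strand, and deposited raw whole-number counts. The table held 0 columns from other samples, and 0 lines lacked a gene name. Totals of 17767318 to 18390385 counts set the counting precision, and Poisson intervals and floors cover counting error only.

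From the counts, genes were filtered with edgeR's filterByExpr (minimum count 10), scaled by TMM and tested with edgeR 4.0.16 (quasi-likelihood, legacy form, no block) in R 4.3.3, with Benjamini-Hochberg adjustment and a threshold of 0.05. The SE is the log2 difference over the root of F. CPM was scaled by TMM. Lengths and positions were taken from GENCODE M21 (GRCm38) for 53360 of 53465 genes, and shared sequence was the share of 31-base words found in transcripts of other genes. Of 2 rows named Itgam, that with more counts was used. The test was first run on simulated data.

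The 10 genes, the 6 pathway lists and the marker lists were chosen with earlier results of these data known. Named were all 10 genes, Trbc1 and Gzmb, from each pathway list the genes past the threshold, the 2 of smallest p and the 2 of highest mean CPM, the 2 most abundant of each marker list where a result needs them, and the 3 genes nearest in profile to the summed genes. Ms4a1 and some genes with few counts (Tcrg-C1, Tcrg-C2, Tcrg-C4, Klrb1c, Klra4, Klra8, Ifng, Xcl1, Krt8, Krt18 and Krt19, and Itgam and Nos2 for the label) were named after their values were seen. Alternatives were other filters, scalings and edgeR forms, DESeq2 1.42.0, a replicate block, a length correction, both together, and each library left out. The length of the longest coding transcript and the median without Cd3d were added after seeing the data. For 1 gene of the pathway lists no result is reported here, but list counts and medians include that gene.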

Additional observations from a re-analysis of the deposited data

How the results depend on the processing

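The number of T and NK cell genes past the threshold was 0 in each of the 15 alternatives, and so was that of the other pathway genes, but DESeq2 gave no adjusted p for 7 of the 9 tested genes and 38 of the 50, and the filter of 1 CPM left out 7 of the 50, so these could not be called there. The median log2 difference of 0.14 ranged from 0.037 to 0.24 with 1 library left out, and the pathway median of 0.15 from 0.035 to 0.20. Signs turned in 5 of 135 values, with a library left out in each case: Cd3g ranged from -0.038 to 0.36 and Trac from -0.044 to 0.88 (both negative without control replicate 1), Cd4 from -0.19 to 0.10 (positive without control replicate 2), Trbc2 from -0.38 to 0.59 (negative without EGCG replicate 1) and Cd3e from -0.10 to 0.30 (negative without EGCG replicate 2). Over all tested genes, the 20 lower and 2 higher calls became 0 and 0 with no filter, 135 and 16 with library size only, 49 and 14 with robust estimation, and 51 and 16 with DESeq2. The lower calls became 9 with upper-quartile scaling, 5 with the length correction and 3 with the replicate block and length correction, and the higher calls became 1 with a filter of 1 CPM in 2 libraries and 6 with the newer quasi-likelihood form. With 1 library left out there were 72 to 235 lower and 5 to 119 higher calls. The cause was not tested. The replicate block gave 24 lower and 6 higher calls. Deviations of same-numbered libraries correlated at 0.0336 over 14682 genes, which cannot show whether such libraries share an origin. The labels give them only a shared number. The summed CPM was 123 in EGCG replicate 1 and 122 in EGCG replicate 2 with library size only, and 125 in EGCG replicate 1 with upper-quartile scaling. Counts under 100 in most of these genes limit what could be detected, and Ncr1 was tested only with no filter, where it was not called, and in DESeq2, which gave it no adjusted p.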
